A study of Mus musculus with 4 samples.

Results

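A set of 10 genes that mark preadipocytes or steer the first steps of fat cell formation was followed in differentiated 3T3-L1 mouse cells after risperidone. They are Dlk1, Sox9, Cebpa, Cebpb, Cebpd, Cebpg, Ebf1, Ebf2, Zfp423 and Zfp521, taken by symbol as 10 of the 16051 genes of the expression table. They were chosen from the measured difference between risperidone and DMSO as well as for their roles, so their differences are descriptions, and neither a threshold that a member passed in the fit over all genes nor an interval on its counts is evidence for it. Of the 10, 7 had a mean of at least 1 FPKM (fragments scaled by transcript length and library depth) over the 4 libraries, as did 10243 genes in all. The other 3, Cebpa, Ebf2 and Zfp423, fell under that limit and are given by their counts.

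The study sequenced the RNA of 3T3-L1 cells, a clonal mouse embryonic fibroblast line of the NIH SWISS strain that forms fat cells after a hormonal cocktail, to see what risperidone, an antipsychotic drug associated with weight gain, does to adipocytes. By the paper's account all cells had been differentiated, and were then kept for 48 h with DMSO, the vehicle, or with 100 μM risperidone. There were 2 libraries per treatment, each combining the RNA of 3 cultures, so variation between single cultures was not measured and any p-value rests on the spread between pools. The sample labels call the controls untreated, the tissue embryonic and the extraction retinal, whereas the paper describes cultured cells and DMSO.

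In fat cell formation, the inducing hormones first raise C/EBPβ and C/EBPδ, the transcription factors encoded by Cebpb and Cebpd, and these switch on C/EBPα and PPARγ, which turn on the genes of the mature fat cell. C/EBPγ, encoded by Cebpg, is a short family member that pairs with the others and with ATF4. Dlk1, also called Pref-1, is a surface protein of preadipocytes whose shed ectodomain blocks differentiation and keeps Sox9 on, and Sox9 in turn represses Cebpb and Cebpd. The factors Ebf1, Ebf2 and Zfp423 favour commitment to the fat lineage, and Zfp521 opposes Ebf1 and Zfp423.

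Promoter sequence from RefSeq was held for 6 of the 10 genes, with 8 transcript starts, on GRCm38.p6. Of these, 4 are shown because they belong to the member that differed most between treatments, to the most abundant C/EBP gene, and to a pair of C/EBP genes that lie close together at very unequal levels. Each run is the 250 bases before the transcript start, 5′ to 3′ on the gene's strand, at chr12:109452573-109452822 (plus strand) for Dlk1, chr2:167688665-167688914 (plus) for Cebpb, chr7:35056567-35056816 (minus) for Cebpg and chr7:35119043-35119292 (plus) for Cebpa. The start used for Dlk1 lies inside the span that RefSeq gives the gene, which begins further upstream. Capitals mark matches, on either strand, to the C/EBP site TTGCNNAA, the CCAAT box CCAAT, the TATA box TATAAA, the GC box GGGCGG and the cAMP response core TGACG.
Dlk1: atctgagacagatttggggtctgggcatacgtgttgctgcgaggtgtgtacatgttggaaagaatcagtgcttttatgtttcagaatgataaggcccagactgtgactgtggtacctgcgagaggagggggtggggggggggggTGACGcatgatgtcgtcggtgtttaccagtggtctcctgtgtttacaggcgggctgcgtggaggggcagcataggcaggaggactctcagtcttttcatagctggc
Cebpb: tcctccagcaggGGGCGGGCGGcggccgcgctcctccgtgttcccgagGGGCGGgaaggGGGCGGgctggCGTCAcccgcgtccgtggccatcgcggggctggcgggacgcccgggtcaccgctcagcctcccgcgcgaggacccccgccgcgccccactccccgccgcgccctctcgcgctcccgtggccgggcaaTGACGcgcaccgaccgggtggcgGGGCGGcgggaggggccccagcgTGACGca
Cebpg: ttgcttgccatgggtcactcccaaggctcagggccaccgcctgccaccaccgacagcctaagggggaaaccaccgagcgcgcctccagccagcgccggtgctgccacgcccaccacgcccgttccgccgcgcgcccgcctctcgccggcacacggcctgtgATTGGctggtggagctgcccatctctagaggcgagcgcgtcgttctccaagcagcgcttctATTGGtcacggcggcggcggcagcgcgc
Cebpa: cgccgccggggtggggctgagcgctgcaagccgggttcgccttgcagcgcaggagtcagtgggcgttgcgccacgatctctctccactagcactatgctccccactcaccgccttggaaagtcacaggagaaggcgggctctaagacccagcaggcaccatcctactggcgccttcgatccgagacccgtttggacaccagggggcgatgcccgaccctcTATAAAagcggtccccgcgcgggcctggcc

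The promoters differed in base composition and in the letters found. The GC content was 54.8% for Dlk1, 66.4% for Cebpa, 70.8% for Cebpg and 81.6% for Cebpb, beside a median of 52.4% over all 32851 promoters of the same length. The Cebpb promoter held 5 GC boxes, of which the first 2 overlap, and 3 cAMP response cores, the nearest ending 3 bases before the start. GC boxes were found in 3 of the 8 member promoters and in 32.7% of all promoters, and cAMP response cores in 2 of the 8 and in 17.8%. Dlk1 held 1 such core, from base -106 to base -102. The Cebpg promoter held 2 CCAAT boxes on the opposite strand, from -89 to -85 and from -28 to -24, and none of the other promoters searched held one, beside 33.8% of all promoters. A TATA box was found in 1 of the 8, that of Cebpa, from -30 to -25, and in 12.4% of all promoters. The C/EBP site was found in 1 of the 8, upstream of Zfp423 from -131 to -124, and in 9.56% of all promoters. Of 3 further motifs searched on both strands, the EBF core CCCNNGGG was found in 2 of the 8 (1 each in Cebpb and Zfp423) and in 11.8% of all promoters, and the STAT site TTCNNNGAA and the SOX site ACAAAG in 0 of the 8, beside 7.02% and 16.5%. These are letter matches in a fixed window, not measured binding.

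The libraries held 15883712 to 16374119 counts, so that 3 counts, which a count of 0 allows, correspond to 0.183 to 0.189 CPM (counts scaled by the library total). Risperidone replicate 2 stood apart from the others. Of 12 kidney transcripts checked, 10 were more than 3 times higher there than in any other library, and Pvalb and Aqp2 had 4 and 3 counts there and 0 elsewhere. Kap, for example, was found with 13 and 8 counts with DMSO and 16 and 1048 with risperidone. The summed level of the 12 was 206.6 CPM beside 4.12 to 6.60 CPM elsewhere, and 289 genes had at least 10 counts in it and at most 3 in each other library. The same library held 2.63 CPM of 5 endothelial transcripts, beside 0.369 to 0.428 CPM elsewhere. Results that rest on it are given with and without it below. Of 8 transcripts of mature fat cells, 2 (Fabp4 and Lipe) passed 1 FPKM, and Adipoq, Cidec, Lep and Slc2a4 had at most 3 counts in every library. Their summed level was 88.0 and 106 CPM with DMSO and 39.4 and 46.0 CPM with risperidone. Of 8 preadipocyte or fibroblast transcripts, 7 passed 1 FPKM, and their sum was 3035 and 2984 CPM with DMSO and 4677 and 4486 CPM with risperidone. That sum is mostly Col1a1, with 36033 and 33909 counts with DMSO and 67400 and 62523 with risperidone, whereas Col3a1 had 9328 and 9416 against 4360 and 4670, so the list did not differ in 1 direction. Most defining markers of mature fat cells were thus absent or near 0. The name differentiated 3T3-L1 cells is the paper's, and it is kept here for the procedure the cells went through. Of 7 retinal transcripts checked, 5 were in the table and 0 passed 1 FPKM. Crx had 1 and 2 counts with DMSO and 41 and 35 with risperidone.

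**Figure D1:**
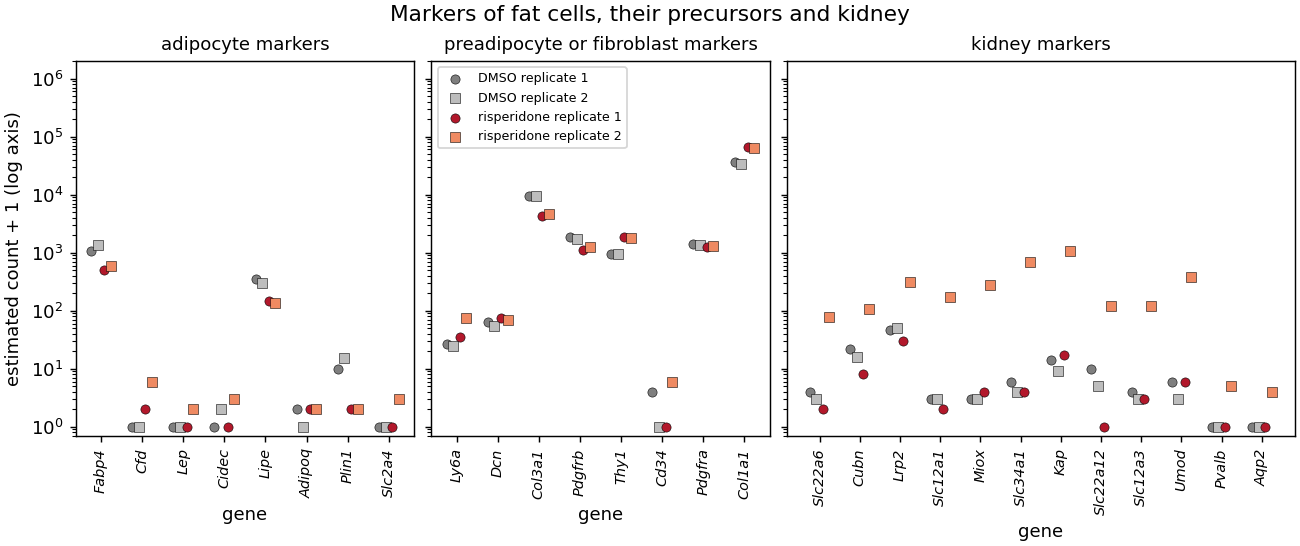
Estimated counts plus 1 (log axis) of 8 adipocyte, 8 preadipocyte or fibroblast and 12 kidney markers are plotted, 1 point for each of the 4 libraries. Risperidone replicate 2 lies above the other libraries for all 12 kidney markers, with 1048 counts of Kap against 8 to 16, and of the adipocyte markers only Fabp4 and Lipe lie well above the floor.

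Of the 7 genes fitted, Dlk1 differed most. This gene lies at chr12:109452485-109463336 in the Dlk1-Dio3 imprinted region, and its transcripts have 5 to 6 exons. Its level was 30.38 and 32.85 FPKM with DMSO and 81.70 and 83.28 FPKM with risperidone, from 873 and 923 counts against 2406 and 2408. The risperidone libraries stood well above the DMSO libraries, and the replicates lay close together in each treatment. The mean was 31.6 ± 1.75 FPKM for DMSO (SD, n = 2 here and below) and 82.5 ± 1.12 FPKM for risperidone, and the log2 fold change of the counts, fitted over all genes, was 1.52 (SE 0.0544). Of the genes tested, 99.1% had a lower log2 fold change, those that fell included. This rank comes from the contrast used to choose the gene. By level, Dlk1 stood above 83.0% of all genes with DMSO and above 94.0% with risperidone. In these bulk libraries, more cells that make Dlk1 and more Dlk1 RNA per cell cannot be told apart.

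Sox9, a transcription factor of progenitors and cartilage that acts downstream of Dlk1, was also higher with risperidone, at a much lower level. The gene spans chr11:112782210-112787757 and has 3 exons. Its level was 3.11 and 2.70 FPKM with DMSO and 5.65 and 5.0 FPKM with risperidone, from 204 and 172 counts against 369 and 321. The groups did not overlap, and the log2 fold change was 0.97 (SE 0.116). With 2 libraries per treatment such a separation, here and below, says little, and its share over all genes was not counted. Within a library, the ratio of Dlk1 to Sox9 by TPM (a transcript abundance scaled to 1 sum in every library) was 9.79 and 12.2 with DMSO and 14.5 and 16.7 with risperidone, so Dlk1 was higher relative to Sox9 as well.

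Zfp521 and Ebf1, which oppose each other in committed cells, were each modestly higher, by less on the TPM scale. Zfp521 (chr18:13687013-13972749, 7 to 8 exons) was at 2.78 and 2.45 FPKM with DMSO and at 3.53 and 3.23 FPKM with risperidone, a log2 fold change of 0.47 (SE 0.103), or 0.19 on log2(TPM + 1). Ebf1 (chr11:44618100-45008096, 16 exons) was at 4.15 and 3.35 FPKM with DMSO and at 4.87 and 5.21 FPKM with risperidone, a log2 fold change of 0.54 (SE 0.104), or 0.26 on log2(TPM + 1). Neither gene's groups overlapped, but the DMSO replicates of Ebf1 differed by a ratio of 1.19, a wide gap beside its difference between treatments. The balance of the pair moved less than either gene. The ratio of Zfp521 to Ebf1 by TPM was 0.672 and 0.732 with DMSO and 0.725 and 0.621 with risperidone, so that the treatments overlapped.

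**Figure D2:**
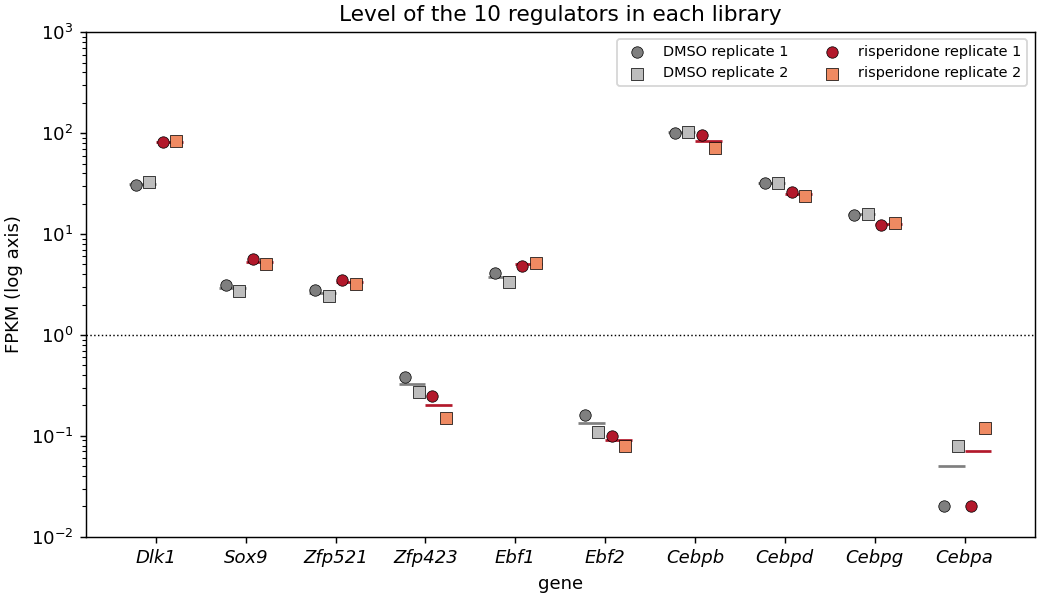
The level of each of the 10 genes (FPKM, log axis) is plotted with 1 point per library, a short line at the mean of each treatment and a dotted line at 1 FPKM. Dlk1 stands at 30.38 and 32.85 FPKM with DMSO and at 81.70 and 83.28 FPKM with risperidone, whereas Cebpb spreads from 70.97 to 95.27 FPKM between the risperidone libraries, and Cebpa, Ebf2 and Zfp423 lie under the dotted line.

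The early C/EBP genes were lower with risperidone or did not separate firmly. Cebpb, which lies in 1 exon at chr2:167688915-167690432, was the most abundant member with DMSO. Its level was 101.32 and 103.06 FPKM with DMSO and 95.27 and 70.97 FPKM with risperidone, from 2294 and 2267 counts against 2147 and 1578. The groups did not overlap, but the lower mean with risperidone (83.1 ± 17.2 FPKM, SD, n = 2, beside 102 ± 1.23 FPKM) rested largely on replicate 2, the library with the kidney transcripts. The log2 fold change was -0.20 (SE 0.102) over all libraries, 0.00223 without risperidone replicate 2 and -0.43 without risperidone replicate 1. Whether Cebpb passed the threshold of the fit over all genes depended on the setting, with 7 of 16 alternatives calling it lower. The risperidone replicates of Cebpb differed by a ratio of 1.34, a wider gap than in 95.7% of the genes tested, whereas those of DMSO differed by 1.02. Whether the other RNA in that library has a part in the gap was not tested.

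Cebpd, the partner of Cebpb in the early wave, was lower in both risperidone libraries. This gene of 1 exon lies at chr16:15887286-15889545 and overlaps Spidr, and its estimated counts are not whole numbers, so reads may have been split between the genes and its values are uncertain. Its level was 32.21 and 32.07 FPKM with DMSO and 26.27 and 23.64 FPKM with risperidone. The log2 fold change was -0.27 (SE 0.0700), from -0.35 to -0.19 when each library was left out in turn. The DMSO replicates were nearly equal and the risperidone replicates differed by a ratio of 1.11, with replicate 2 again the lower.

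Cebpg (chr7:35046422-35056566, 2 exons) was lower too, with close replicates in each treatment. Its level was 15.53 and 15.72 FPKM with DMSO and 12.32 and 12.80 FPKM with risperidone, from 1161 and 1141 counts against 916 and 936. The log2 fold change was -0.22 (SE 0.0609), and from -0.24 to -0.20 when each library was left out in turn. It moved more with the scaling, to -0.13 with an offset for gene length, where it was not called, and to -0.44 on log2(TPM + 1). For this gene risperidone replicate 2 was the higher of the pair, unlike for Cebpb and Cebpd.

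Cebpa, the member that takes over from Cebpb and Cebpd in maturing fat cells, was almost undetected. It lies at chr7:35119293-35121928, 62.7 kb from Cebpg on the other strand. The libraries held 1 and 3 counts with DMSO and 1 and 5 counts with risperidone, or 0.02 and 0.08 FPKM against 0.02 and 0.12 FPKM. The treatments overlapped, and the ratio of the summed counts, scaled by library size, risperidone over DMSO, was 1.5 with an exact 95% binomial interval of 0.356 to 7.23, which covers counting error only. Without risperidone replicate 2 the ratio was 0.496 (0.0101 to 5.01), on the other side of 1. Pparg, the gene for PPARγ, was at a mean of 12 FPKM with DMSO and 12.6 FPKM with risperidone, and its log2 fold change of 0.12 did not pass the test (Benjamini-Hochberg adjusted p = 0.194 by edgeR's quasi-likelihood test, and 0.026 to 0.75 over the alternative settings).

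**Figure D3:**
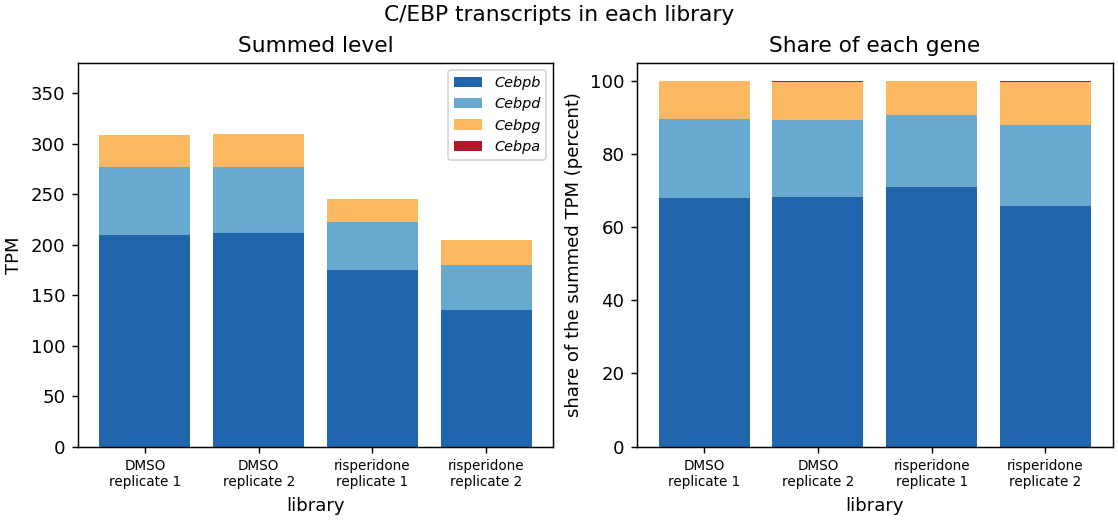
The TPM of Cebpb, Cebpd, Cebpg and Cebpa is stacked for each of the 4 libraries (left, TPM) and drawn as a share of their sum (right, percent). The sum is 309 and 310 TPM with DMSO and 245 and 205 TPM with risperidone, Cebpb takes 66.0% to 71.2% of it in every library, and Cebpa, at most 0.117%, is barely visible.

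The 4 C/EBP members were also set against their own sum, which leaves out relatives such as Ddit3 and Cebpz. The summed level of Cebpa, Cebpb, Cebpd and Cebpg was 309 and 310 TPM with DMSO and 245 and 205 TPM with risperidone. Cebpb made up 68.0% and 68.3% of it with DMSO and 71.2% and 66.0% with risperidone. Cebpd made up 21.6% and 21.2% with DMSO and 19.6% and 22% with risperidone, and Cebpg 10.4% in each DMSO library and 9.21% and 11.9% with risperidone. For each of these genes the risperidone libraries lay on either side of the DMSO libraries, replicate 1 with more Cebpb and less Cebpd and Cebpg than DMSO and replicate 2 the reverse. The mean shares therefore rest on replicate 2, and without it the share of Cebpb was higher and those of Cebpd and Cebpg lower than in either DMSO library, in a single risperidone library. The sum was lower in each risperidone library. The spread between the risperidone libraries was far wider than that between the DMSO libraries. Against these genes, Dlk1 was higher in each ratio given here. Its ratio to Cebpb by TPM was 0.300 and 0.319 with DMSO and 0.858 and 1.17 with risperidone, and its ratio to Cebpg was 1.96 and 2.09 against 6.63 and 6.50.

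Zfp423 and Ebf2, factors of fat lineage commitment and, for Ebf2, of brown fat cells, were near the limit of detection. Zfp423 (chr8:87661810-87962053, 6 to 8 exons) had 27 and 18 counts with DMSO and 18 and 11 with risperidone. The ratio of the sums was 0.645, with an exact binomial interval of 0.390 to 1.05, and 0.793 (0.432 to 1.40) without risperidone replicate 2. Ebf2 (chr14:67233292-67430952, 16 to 17 exons) had 13 and 9 counts with DMSO and 7 and 7 with risperidone, a ratio of 0.637 with an interval of 0.301 to 1.30. Each interval holds 1, so the depth does not fix the direction of either ratio. Their counterparts were far more abundant. Ebf1 exceeded Ebf2 by a ratio of 25.3 and 31.2 in TPM with DMSO and 49.5 and 66.1 with risperidone, and Zfp521 exceeded Zfp423 by 7.40 and 9.15 with DMSO and 14.0 and 22 with risperidone.

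The order of the 10 levels (FPKM, and the same by TPM) therefore differed between treatments at few places. With DMSO it ran Cebpb, Cebpd, Dlk1, Cebpg, Ebf1, Sox9, Zfp521, Zfp423, Ebf2 and Cebpa. With risperidone it ran Cebpb, Dlk1, Cebpd, Cebpg, Sox9, Ebf1, Zfp521, Zfp423, Ebf2 and Cebpa. The libraries of neighbours overlapped for Cebpd and Dlk1 and for Sox9 and Zfp521 with DMSO, and for Cebpb and Dlk1, Sox9 and Ebf1, and Ebf2 and Cebpa with risperidone. For the 3 overlaps with risperidone, the replicates gave opposite orders. In replicate 1 Cebpb (95.27 FPKM) stood above Dlk1 (81.70 FPKM), Sox9 above Ebf1 and Ebf2 above Cebpa. In replicate 2 each pair ran the other way, with Dlk1 at 83.28 FPKM and Cebpb at 70.97 FPKM. Dlk1 stood level with Cebpd in the controls and above Cebpd in each risperidone library.

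**Figure D4:**
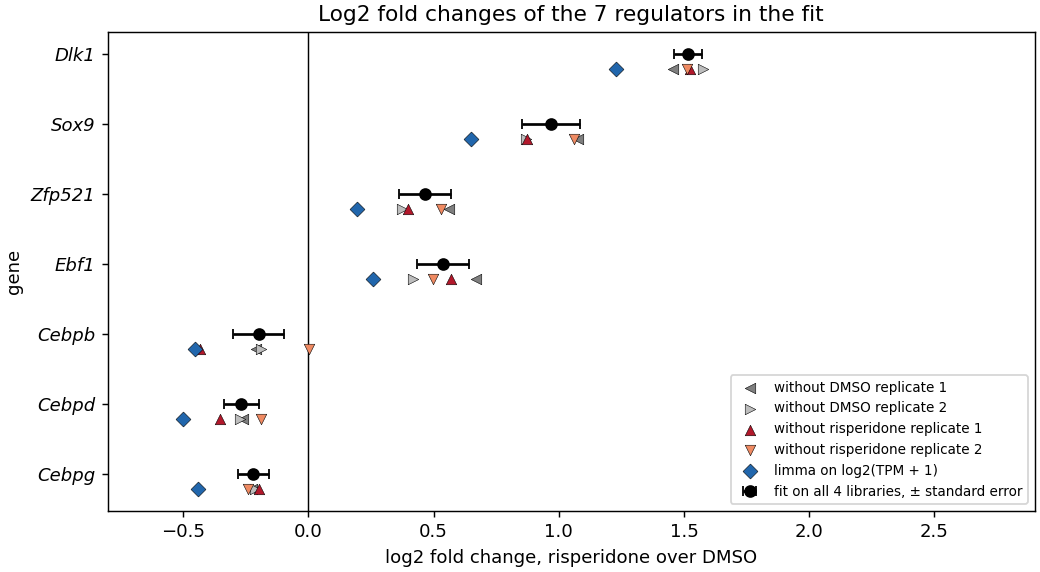
The log2 fold change, risperidone over DMSO, is plotted for the 7 members that passed 1 FPKM, as a black point with its SE for the fit on all 4 libraries, triangles for the fits that leave out 1 library each and a diamond for limma on log2(TPM + 1). Dlk1 stands apart at 1.52, and Cebpb lies at -0.43 or 0.00223 depending on which risperidone library is left out.

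Over all genes, 6590 of 10243 (64.3%) passed a Benjamini-Hochberg adjusted p of 0.05 by edgeR's quasi-likelihood test, 3287 (32.1%) higher and 3303 (32.2%) lower with risperidone. Of the 7 members, 6 passed, 4 of them higher (Dlk1, Sox9, Ebf1 and Zfp521) and 2 lower (Cebpd and Cebpg), which is read as no result because the contrast was used to choose them. The split depends on the scale. On log2(TPM + 1) with limma, 1536 genes were higher and 5292 lower, the median of all genes was shifted by -0.22, and 2 members were called higher and 3 lower, Zfp521 and Ebf1 no longer passing and Cebpb passing. Every member kept its sign on the TPM scale, at 1.23 for Dlk1, 0.65 for Sox9, 0.26 for Ebf1, 0.19 for Zfp521, -0.44 for Cebpg, -0.45 for Cebpb and -0.50 for Cebpd.

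The genes around these 10 were taken as 7 lists, 112 genes in all, of which 64 passed 1 FPKM. Of these, 54 (84.4%) passed the same test, 23 higher and 31 lower with risperidone, beside 64.3% of all genes tested. On the TPM scale 42 of them passed. All genes tested had a median log2 fold change of 0.00044, and of -0.22 on the TPM scale. The TPM medians of the lists below are to be read beside the latter. The lists were drawn up with earlier results of these data known.

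Among 9 partners and relatives of the C/EBP proteins, 5 rose and 4 fell, with a median log2 fold change of 0.26. On the TPM scale 1 rose and 4 fell, with a median of -0.01. Ddit3, which encodes CHOP, a C/EBP relative of the stress response that blocks DNA binding by its partners, rose most, from a mean of 111 FPKM to 443 FPKM (log2 fold change 2.0, SE 0.103). Atf5 fell from 162 to 59.0 FPKM (-1.36, SE 0.0561). It encodes a factor that, like CHOP, is known from the cellular stress response. Creb1, which acts upstream of Cebpb, fell from 8.65 to 5.76 FPKM (-0.49, SE 0.0711).

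Of 12 other early regulators of fat cell formation, 2 rose, 6 fell and 4 did not pass, with a median of -0.12, or -0.22 without risperidone replicate 2. On the TPM scale 2 rose and 6 fell, with a median of -0.32. Klf15 rose from 0.815 to 2.0 FPKM (1.41, SE 0.232) and Klf9 from 33.9 to 51.4 FPKM (0.70, SE 0.0568). Both are Krüppel-like factors that favour differentiation and are known targets of glucocorticoids. Zfp217 fell from 13.4 to 7.91 FPKM (-0.67, SE 0.0727), and the other 5 that fell were Stat5a, Stat5b, the glucocorticoid receptor gene Nr3c1, Rxra and Srebf1.

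Of 16 genes listed from general knowledge as brakes on fat cell formation, 9 rose and 7 fell, with a median of 0.38. Their roles in these cells were not tested, and that of Id2 as a brake is not settled. On the TPM scale 6 rose and 7 fell, with a median of 0.13. Id2, an inhibitor of helix-loop-helix factors, rose from 7.33 to 18.0 FPKM (1.39, SE 0.113), and Runx2, the bone factor, from 2.61 to 4.41 FPKM (0.95, SE 0.0965). Trib2, which drives the loss of C/EBP proteins, fell from 14.0 to 6.88 FPKM (-1.03, SE 0.0601). The list held genes that moved either way, and the other 6 that fell were Ctnnb1, Foxo1, Hdac3, Klf2, Klf3 and Nr2f2.

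Among 10 targets of C/EBPα and PPARγ, 3 rose, 5 fell and 2 did not pass, with a median of -0.07, or -0.36 without risperidone replicate 2. On the TPM scale 0 rose and 5 fell, with a median of -0.30. Lipe, the hormone-sensitive lipase, fell from 7.56 to 3.21 FPKM (-1.12, SE 0.120), and Fabp4, the fatty acid carrier, from 149 to 65.3 FPKM (-1.09, SE 0.120). Pck1, which is also a kidney gene, had 9 and 0 counts with DMSO and 3 and 342 with risperidone. Its log2 fold change of 5.32 rested on risperidone replicate 2 and was -0.48 without that library, where its adjusted p was 0.784 (edgeR) and 2 of the list rose, beside adjusted p from 4.2e-52 to 0.78 over all alternatives. The other 9 genes of the list, Adipoq, Cidec and Plin1 among them, did not reach 1 FPKM.

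The genes around Dlk1 and Sox9 were few at this level. Of 4 genes of Dlk1 processing and its imprinted network, 3 fell and 1 did not pass (4 fell on the TPM scale), with a median of -0.44. Ndn, an imprinted growth regulator, fell from 20.3 to 12 FPKM (-0.66, SE 0.0803), Peg3 from 2.72 to 1.71 FPKM (-0.53, SE 0.103), and Adam17, the protease that sheds the Dlk1 ectodomain, from 31.4 to 23.0 FPKM (-0.35, SE 0.0494). Dlk2, the paralog of Dlk1, did not reach the limit over the 4 libraries and was higher with risperidone, with 7 and 10 counts with DMSO and 22 and 31 with risperidone. Of 4 partners and targets of Sox9, 3 fell and 1 did not pass, with a median of -0.46. Sox4 fell from 29.0 to 15.7 FPKM (-0.79, SE 0.0638), and the collagen genes Col11a1 (-0.47, SE 0.0637) and Col11a2 (-0.46, SE 0.0790) fell while Sox9 itself was higher.

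Of 9 relatives and partners of the Ebf and Zfp423 factors, 4 rose, 3 fell and 2 did not pass, with a median of 0.13, and 3 rose without risperidone replicate 2. On the TPM scale 1 rose and 3 fell, with a median of -0.10. Id1, a target of BMP signals, fell from 36.9 to 13.9 FPKM (-1.30, SE 0.114), and the BMP receptor gene Bmpr1a from 42.7 to 29.3 FPKM (-0.45, SE 0.0519). Smad9, a BMP signal carrier, rose from 4.25 to 6.07 FPKM (0.62, SE 0.0637). Ebf3 was at 6.95 and 6.92 FPKM, and its log2 fold change of 0.11 did not pass.

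**Figure D5:**
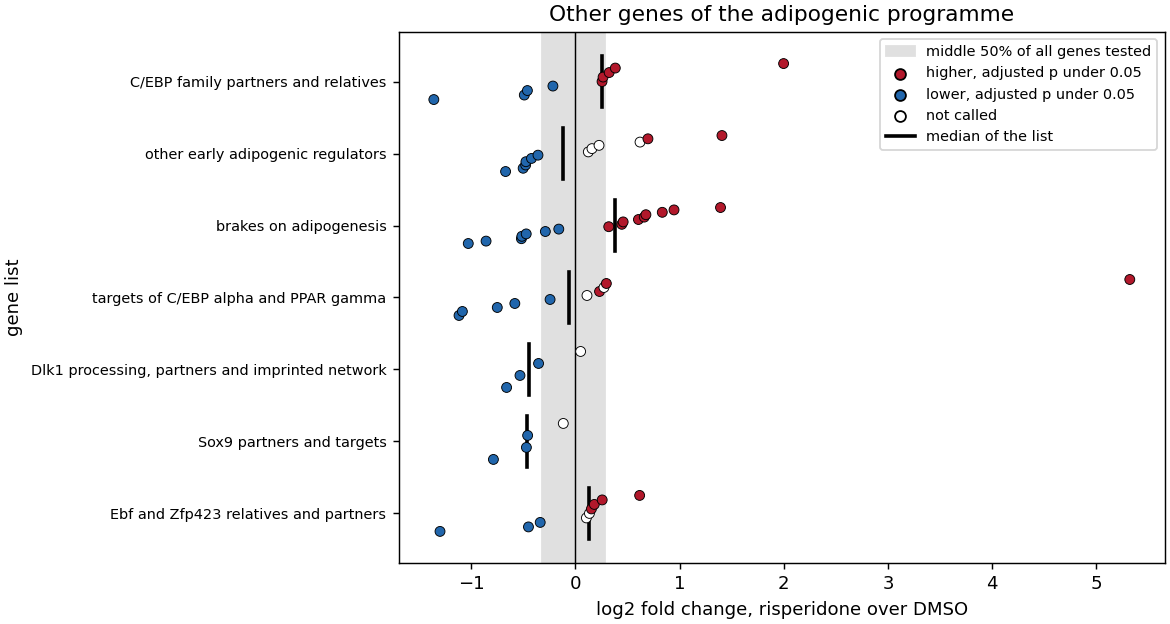
The log2 fold change, risperidone over DMSO, of each gene that passed 1 FPKM in the 7 surrounding lists is plotted, 1 point per gene, red or blue where called higher or lower and white where not called, with the median of each list as a bar and the middle 50% of all genes tested shaded. The median lies right of 0 for 3 lists. On the TPM scale, where the median of all genes is -0.22, these 3 lists stay above that median. Only the listed brakes on fat cell formation stay right of 0 there. The point at 5.32 is Pck1, which rests on risperidone replicate 2.

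The genes whose levels followed those of Dlk1 most closely over the 4 libraries, by distance between their log2 levels centred on the mean, were Mpp6 (0.0590), Tent5b (0.0722) and Aldh1a1 (0.0748). For Sox9 they were Pola1 (0.0391), Gm45871 (0.0615) and Zfp330 (0.0919). With 4 libraries in 2 treatments, such a pattern is mostly the difference between treatments.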

How the data were processed

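RNA of differentiated 3T3-L1 cells was sequenced on MGISEQ-2000 by the authors, who filtered the raw reads for quality before mapping. The deposited table gives per gene and library an expected count, which the authors estimated from the mapped reads without further scaling, and the FPKM and TPM values the authors derived from them, TPM summing to the same total in each library. The submitters' processing notes name Bowtie2, RSEM, DESeq2 and the build GRCm38.p6, with no versions or roles. The authors' mean columns were not used.

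Groups came from the sample titles. Expected counts were rounded to whole numbers. Genes whose FPKM averaged 1 or more across libraries were fitted in R 4.3.3 with edgeR 4.0.16 (TMM scaling, quasi-likelihood test, two-sided, Benjamini-Hochberg adjustment over 10243 genes, threshold 0.05). The fit had a biological coefficient of variation of 0.0468. Tested on simulated data with 200 genes changed 2-fold among 10243, it recovered 93.5% of them with 12 false calls. The simulation took its dispersions from the same fit and held no foreign RNA. It also changed far fewer genes than the 64.3% called here, so its rates do not carry over to these data. The design had assumed raw counts, and the same test was kept after rounding. Alternatives used DESeq2 1.42.0 and limma 3.58.1, other scalings, filters, a gene length offset and each library left out. Ratios of genes under the limit carry exact binomial 95% intervals. Depth limits each value to counting error of its reads, and the labels give no batch.

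The members and gene lists were chosen with earlier results of these data known. Named are all members, the 3 genes of each list with the largest absolute log2 fold change among those called, and the 3 genes nearest in pattern to Dlk1 and Sox9 (Euclidean distance of centred log2 CPM, prior count 2). The genes nearest to Cebpa are not given, because its pattern rests on 10 counts. Pparg, Ebf3, Dlk2 and the genes named to complete a count or to describe a marker list were chosen after their values were seen. Gene positions and promoters are from RefSeq on GRCm38.p6, and exon numbers from GENCODE.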

Additional observations from a re-analysis of the deposited data

How the results depend on the processing

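The alternatives kept the sign of every fitted member except Cebpb. Leaving out each library in turn gave Cebpb a log2 fold change from -0.43 to 0.00223, the latter without risperidone replicate 2, and gave Pck1 one from -0.48 to 10.46, the latter without DMSO replicate 1 and the former without risperidone replicate 2. Of 109 alternative values of the members, 81 lay within the spread between replicates, 27 lay outside it with the sign kept, and 1 changed sign. For the fits that leave out 1 library, lying within it was nearly fixed in advance, because the spread is built from the same gaps between replicates. Of 331 alternative values for 21 named list genes, 324 kept sign and call, 6 lost the call and 1 changed sign, the last 7 all of Pck1. On log2(TPM + 1), 1536 genes were called higher and 5292 lower. With a mean of at least 5 FPKM, 3 members were called, because 4 were fitted there.

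Cebpb, not called over all libraries, was called lower in 7 of 16 alternatives: library size alone, log2(TPM + 1), quantile normalization, the length offset, the replicate block, the crossed block and without risperidone replicate 1. Zfp521 and Ebf1 lost their call on log2(TPM + 1), and Cebpg lost its call with the length offset.

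Neither the sample titles nor the paper says whether same-numbered libraries of the 2 treatments were handled together. Their deviations correlated at -0.10 over 10243 genes, which does not settle it. With a replicate block, 6613 genes were called, 3292 higher and 3321 lower. With the numbers crossed, a setting chosen after seeing the data, 3474 genes were higher and 3519 lower.

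Depth limits Cebpa, Ebf2 and Zfp423, with 10, 36 and 74 counts over the 4 libraries. With 2 pooled libraries per treatment, the errors given describe the spread between pools and not between cultures.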
